A study of Linum usitatissimum with 4 samples.

Results

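The region described here is a block of cytosines on flax chromosome Lu13. Per the authors' tables, their nearest gene start is that of Lus10009768 (Lus10009768.g in the tables). In 21 of the 37 listings with that identifier it is described as a gene of the DUF4370 family. The region holds 39 of the 1894 listings of differential methylation in the series, at 29 of the 1648 listed cytosines. The members were chosen by their gene identifier and their presence in the authors' lists, so the q-values and methylation differences that put them there are given as a description, without a test. Of the 39 listings, 37 carry the identifier in the 8 tables whose gene columns could be used. The other 2 come from the CG table of the combined treatment and were added because they lie on Lu13 between the first and last of those positions.

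The series is whole-genome bisulfite sequencing of Linum usitatissimum, cultivar JRF-2, which tells methylated cytosines, left intact by bisulfite, from unmethylated ones, which it converts. All seedlings were grown for 21 days at 22 ± 2 °C, under 16 h of light and 8 h of dark. The control had no further treatment. The heat group was exposed to 40 ± 2 °C for 4 h a day on 5 consecutive days, followed by recovery at the growth temperature. The 5-azacytidine group came from seeds soaked in 1 mM 5-azacytidine for 24 h, and the 5-azacytidine plus heat group had both treatments. Each of the 4 groups is 1 library from the shoot apices of 10 pooled seedlings. Without replicates, values carry no error between samples and groups cannot be tested against each other. Read coverage was not analysed here, so the depth behind each site is unknown. A difference is in percentage points of methylation. It is taken to be the treated value minus the control value, an order that the files do not state; under the opposite order, rises would be falls. The tables hold no marker of tissue, so the labelled tissue was not checked.

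In plants, methylated cytosines occur in 3 sequence contexts, CG, CHG and CHH, where H is A, C or T. In Arabidopsis, CG methylation is copied at replication by MET1 and CHG methylation by CMT3, while CHH methylation has no symmetric partner to copy and is set again by CMT2 and by DRM2, the latter guided by small RNAs. CHH methylation is best known at transposable elements. The drug 5-azacytidine is a cytidine analogue that is built into DNA and traps methyltransferases. DUF4370 is a protein domain family named as a domain of unknown function, and what is now known of it was not looked up here. Some listings of Lus10009768 carry descriptions of other proteins, given below.

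All 29 cytosines lay upstream of the start of Lus10009768, between 10791 and 35634 bp away, and 0 lay within 2000 bp of it. Upstream is read from the minus sign of the deposited distances, and the strand of the gene was not checked. The 37 listings with the identifier all implied 1 gene start, at 11427362 on Lu13. The DUF4370 description stood beside 21 of them. The other 16 had free text on other proteins, an ABC transporter in 10, an ATL42-like ubiquitin ligase in 5 and a bromodomain protein in 1, beside the same identifier and distance. Positions are the deposited starts, which may be off by 1 bp because the files do not say whether they count from 0 or 1, and no source used here gives the genome build. Exons, introns and repeats need an annotation, which was not used here. No other listed gene fell between the first and last site. The nearest listed cytosine outside was 539339 bp to the left, with the nearest start that of Lus10032848 (1 listing). On the right it was 150841 bp away, with the nearest start that of Lus10009761 (3 listings).

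The cytosines formed 3 groups when sites up to 500 bp apart were joined. A distal stretch of 2360 bp, from 11391728 to 11394088, held 24 cytosines and 31 listings, 33274 to 35634 bp upstream. A nearer stretch of 345 bp, from 11397125 to 11397470, held 4 cytosines and 7 listings, 29892 to 30237 bp upstream. The gap between these stretches was 3037 bp. A lone CHH cytosine lay a further 19101 bp on, 10791 bp upstream. Joined at 200 bp, the sites gave 7 groups, of which the first packed 19 cytosines and 24 of the 39 listings into 1085 bp. All 3 CG cytosines and the only CHG cytosine were in that group, and the nearer stretch and the lone site were CHH throughout. Of the 28 gaps between neighbouring cytosines, 21 were no longer than the 150 bp of a read. Such neighbours can share reads, and the 39 listings are therefore not independent measurements.

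Falls were the usual direction here, as they were over the whole lists. With heat, 3 of 4 listings were lower than in the control library, against 78.8% of all heat listings. With 5-azacytidine, 7 of 8 were lower, against 90.8% of that comparison's listings. With 5-azacytidine plus heat, 26 of 27 were lower (96.3%, exact Clopper-Pearson 95% interval 81.0 to 99.9, counting error only), against 95.3%. These shares lie near those of the lists, and the 3 comparisons share 1 control library. Of the 39 differences, 36 (92.3%) were under 15 points in absolute value, as were 78.5% of all 1894 listings. The median difference was -9.47 points under heat, -9.20 under 5-azacytidine and -9.19 under the combined treatment, where the medians over all listings were -9.56, -9.66 and -9.35. The sign of the first and second depends on the authors' q-value limit. Below 0.01 heat kept 1 site, a CG rise of 13.1 points. Below 0.001 5-azacytidine kept 2 CG sites, 50% of them lower, with a median of 2.88 points.

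**Figure D1:**
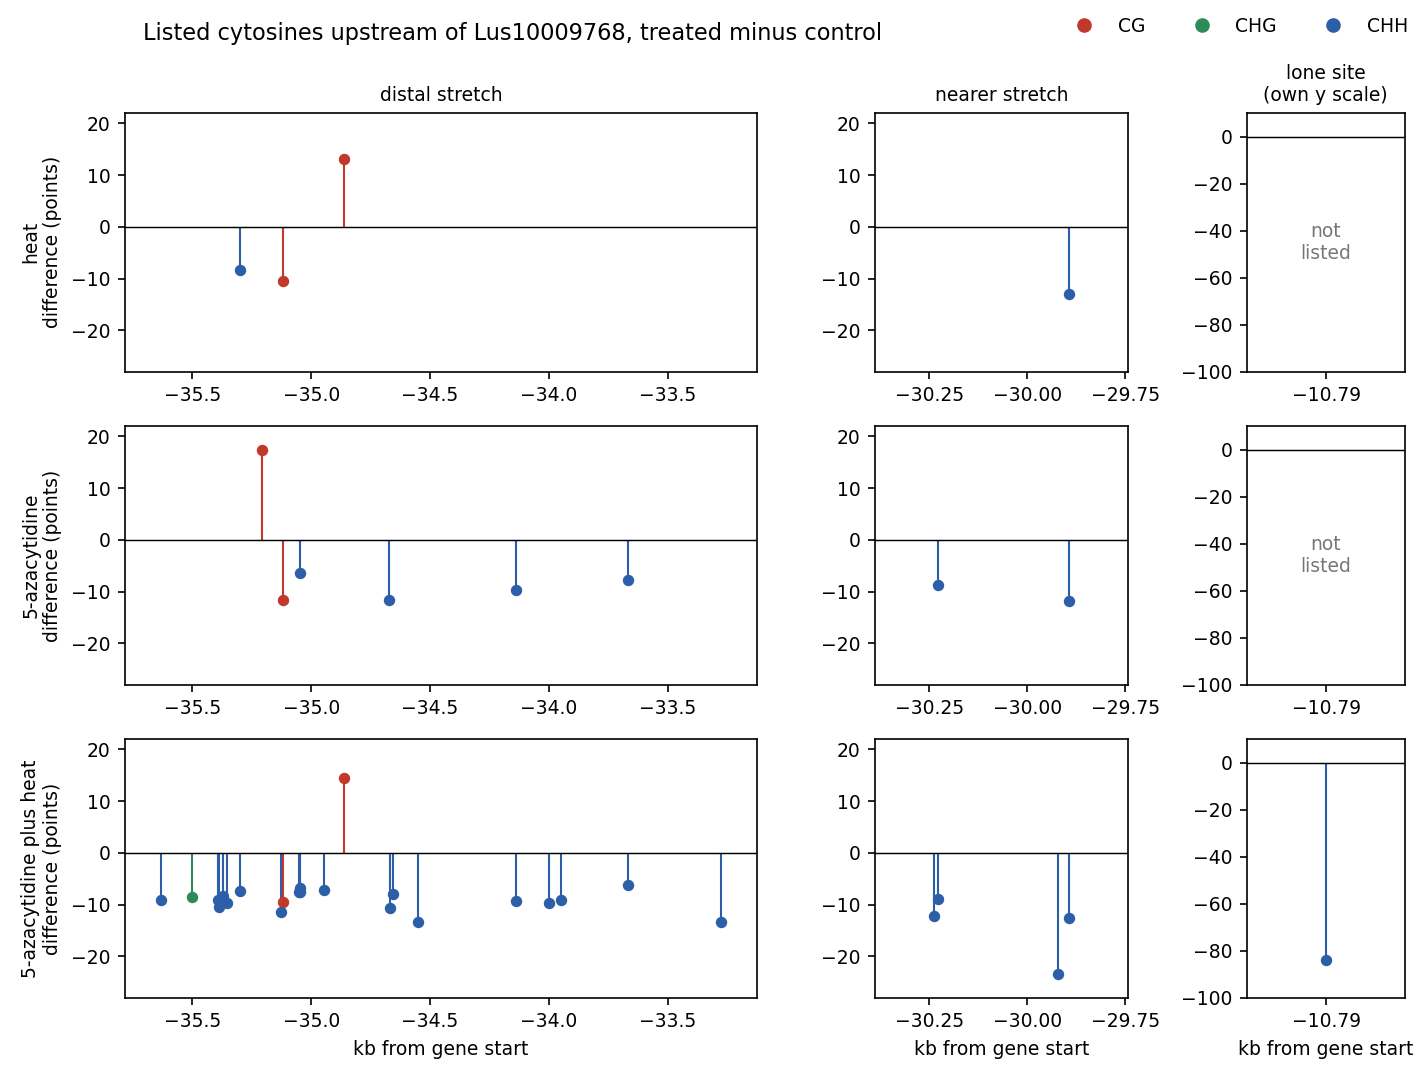
Authors' methylation difference (y axis, percentage points, treated minus control) of each listed cytosine against its distance from the start of Lus10009768 (x axis, kb), 1 row a comparison and 1 column a group of sites. Colours give the context. The combined treatment fills both stretches with CHH falls, while the rises are CG sites of the distal stretch; the lone site, at -83.8 points, has its own y scale.

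CG sites went both ways, with 3 of 6 listings, at 2 of 3 cytosines, higher. The background shares of lower CG listings were 60.4% for heat, 79.7% for 5-azacytidine and 78.2% for the combined treatment, and in each comparison 1 of the 2 CG sites here was lower. The 3 CG cytosines lay within 349 bp of the distal stretch, with 89 bp and 260 bp between neighbours. The first, at 11392153, had 17.5 points with 5-azacytidine in the authors' deposited table (q = 4.02e-10) and is not in the CG lists of the other comparisons. The second, at 11392242, was lower in all 3: the authors' deposited tables give -10.5 points for heat, -11.7 for 5-azacytidine and -9.49 for the combined treatment. The last, at 11392502, was higher in both heated libraries, with 13.1 points under heat and 14.6 points under both treatments in the authors' deposited tables. Higher and lower CG sites thus stood side by side in each comparison.

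The 3 rises also had the 3 smallest q-values of the 39 listings, between 1.08e-10 and 6.87e-08 in the authors' deposited tables. The smallest q-value among the 36 falls in the authors' deposited tables was 4.63e-05. That fall is a CHH site, while all 3 rises are CG sites, so the contrast also sets contexts against each other. Over the whole lists, 31.5% of CG listings and 8.33% of CHH listings had a q-value below 0.001. Among the CG falls here, the smallest q-value in the authors' deposited tables was 0.000355, at 11392242 with 5-azacytidine. By p-value, the rise at 11392153 ranked 4 of 64 in the 5-azacytidine CG table. The rise at 11392502 ranked 7 of 48 in the heat CG table and 6 of 101 in that of the combined treatment. By absolute difference these sites ranked lower, 19 of 64, 23 of 48 and 45 of 101. The fall at 11392242 ranked 30 of 48, 15 of 64 and 78 of 101 by p-value for heat, 5-azacytidine and the combined treatment.

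**Figure D2:**
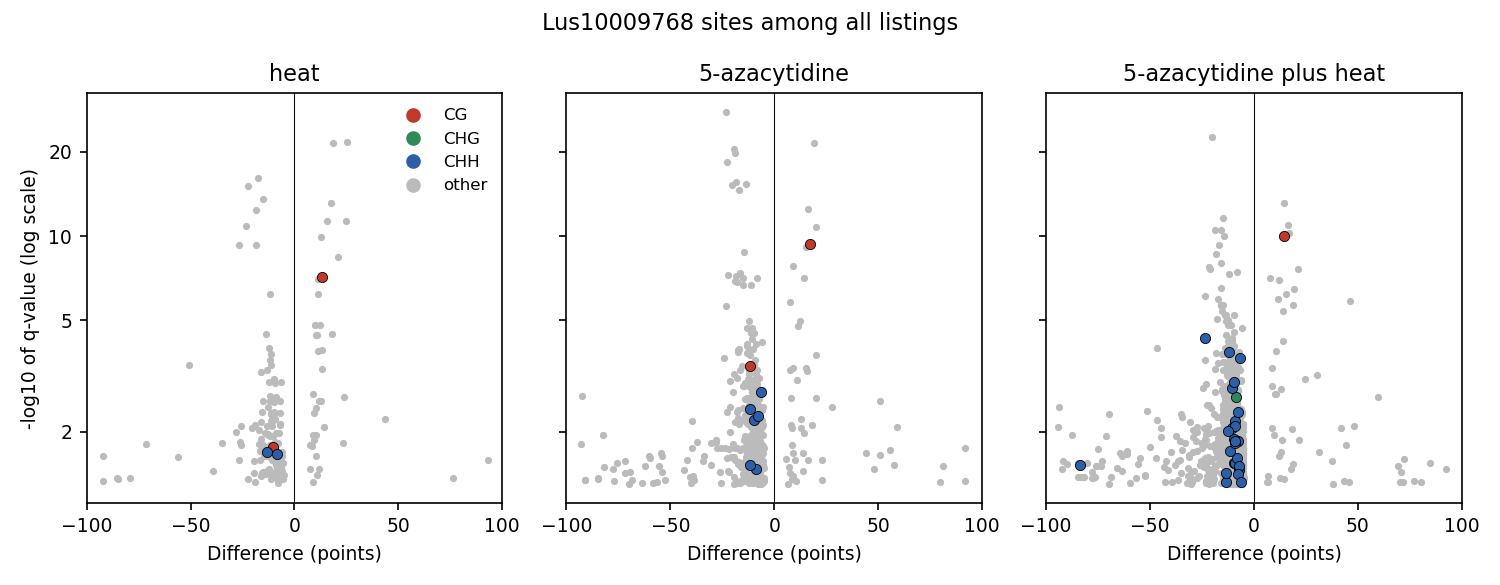
Authors' difference (x axis, percentage points) against -log10 of the authors' q-value (y axis, log scale) for all listings of each comparison in grey and those of the Lus10009768 region in colour by context. The 3 CG rises, at 13.1 to 17.5 points, stand above all other coloured points, whose smallest q-value is 4.63e-05.

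The only CHG cytosine, at 11391860 in the distal stretch, was listed for 5-azacytidine plus heat, at -8.50 points in the authors' deposited table (q = 0.00219). It ranked 11 of 25 by p-value and 23 of 25 by absolute difference in that CHG list, of which 68% was lower.

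All 32 CHH listings were lower than in the control library: 2 of 2 for heat, 6 of 6 for 5-azacytidine and 24 of 24 for the combined treatment. The corresponding shares of lower CHH listings over the whole tables were 89.4%, 93.4% and 97.6%, so falls alone do not set these sites apart from the lists. The median CHH difference here was -10.7 points under heat, -9.20 under 5-azacytidine and -9.22 under both. Over all CHH listings it was -10.3, -9.42 and -9.24. These 32 listings are among 634 CHH listings more than 10000 bp from a gene start, of which 95.3% were lower, with a median of -9.27 points.

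Heat had 1 CHH site in each stretch, 6.25% of the CHH listings here, and its list is also the shortest, with 7.71% of all CHH listings. The authors' deposited table gives -8.40 points at 11392064 (q = 0.0216) and -13.0 points at 11397470 (q = 0.0199). They ranked 64 and 62 of 123 by p-value, in the middle of the heat CHH list.

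With 5-azacytidine, 4 CHH sites were listed in the distal stretch and 2 in the nearer one. In the authors' deposited table, the distal sites had -6.40 points at 11392314, -11.6 at 11392691, -9.73 at 11393226 and -7.73 at 11393697. The nearer sites in the authors' deposited table had -8.67 points at 11397134 and -11.8 at 11397470. The distal q-values lay between 0.00170 and 0.00622 and the nearer ones at 0.0336 and 0.0299. In this comparison the sizes thus overlapped between the stretches while the q-values of these few sites did not. With 5-azacytidine plus heat the CHH q-values did overlap: 0.000207 to 0.0474 in the distal stretch and 4.63e-05 to 0.0141 in the nearer one.

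With 5-azacytidine plus heat, 19 CHH sites fell in the distal stretch, with a median of -9.15 points and a range from -13.4 to -6.16. From the far end, the authors' deposited table gives -9.13 points at 11391728 and then 4 sites within a short run, -9.19 at 11391969, -10.4 at 11391976, -8.37 at 11391992 and -9.68 at 11392007. Next in the authors' deposited table came -7.34 points at 11392064 and -11.4 at 11392235, the latter 7 bp from the CG cytosine at 11392242. The closest 3 cytosines of the region, within 5 bp, had -7.49 points at 11392311, -6.81 at 11392314 and -7.47 at 11392316 in the authors' deposited table. These close neighbours differed from each other by less than 1 point.

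Further along the distal stretch, the authors' deposited table for 5-azacytidine plus heat gives -7.22 points at 11392417, -10.6 at 11392693, -7.84 at 11392707 and -13.4 at 11392812. The site at 11392693 lay 2 bp from the one listed with 5-azacytidine alone at 11392691. Beyond a gap of 414 bp, the authors' deposited table has -9.25 points at 11393226, -9.61 at 11393364 and -9.15 at 11393413. At the near end, the authors' deposited table has -6.16 points at 11393697 and -13.3 at 11394088. Size did not grow or shrink steadily along the stretch: values near -13 points stood at 11392812 and at the near end, with values from -9.61 to -6.16 between them.

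In the nearer stretch all 4 cytosines were listed for 5-azacytidine plus heat, with a median of -12.4 points. The authors' deposited table gives -12.2 points at 11397125 (q = 0.000135) and -8.95 at 11397134 (q = 0.0141), 9 bp apart. It continues with the largest fall of both stretches, and in the authors' deposited table that site, 11397440, has -23.3 points (q = 4.63e-05). At 11397470, 30 bp on, the authors' deposited table has -12.5 points (q = 0.00958). By p-value the site at 11397440 ranked 20 of 1018 and that at 11397125 ranked 32 of 1018. Together with 11392314 and 11392007 in the distal stretch, they are the 4 of 24 CHH sites with a q-value below 0.001 (16.7%), where 7.47% of the whole CHH list passed that limit.

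The lone site at 11416571 differed from the others in size. The authors' deposited table gives it -83.8 points with 5-azacytidine plus heat (q = 0.0294), the 8th largest of 1018 by absolute difference and 667 of 1018 by p-value. The other 2 comparisons do not list it. At 11391969 the authors' deposited table has nearly the same q-value, 0.0285, for a fall of -9.19 points. The coverage at either site is unknown. Without the lone site and 11397440, the remaining 22 CHH sites of the combined treatment lay between -13.4 and -6.16 points.

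Some cytosines appear in more than 1 comparison. The comparisons share the control library, so a value repeated between them is not independent, and the values are given side by side as a description. Why a site is missing from a list is not known here, and its absence does not show that it was unchanged. The 2 cytosines listed throughout are the CG site at 11392242 and the CHH site at 11397470. For the latter the authors' deposited tables give -13.0 points with heat, -11.8 with 5-azacytidine and -12.5 with both.

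For the CHH sites listed in 2 comparisons, the values side by side were as follows. At 11392064 the authors' deposited tables have -8.40 points for heat and -7.34 for the combined treatment. At 11392314 the authors' deposited tables have -6.40 points for 5-azacytidine and -6.81 for the combined treatment. At 11393226 the corresponding values in the authors' deposited tables are -9.73 and -9.25, at 11393697 -7.73 and -6.16, and at 11397134 -8.67 and -8.95. The value with both treatments was thus nearer to zero at some of these sites and farther from it at others. The difference between comparisons was not tested, since each group is 1 library.

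**Figure D3:**
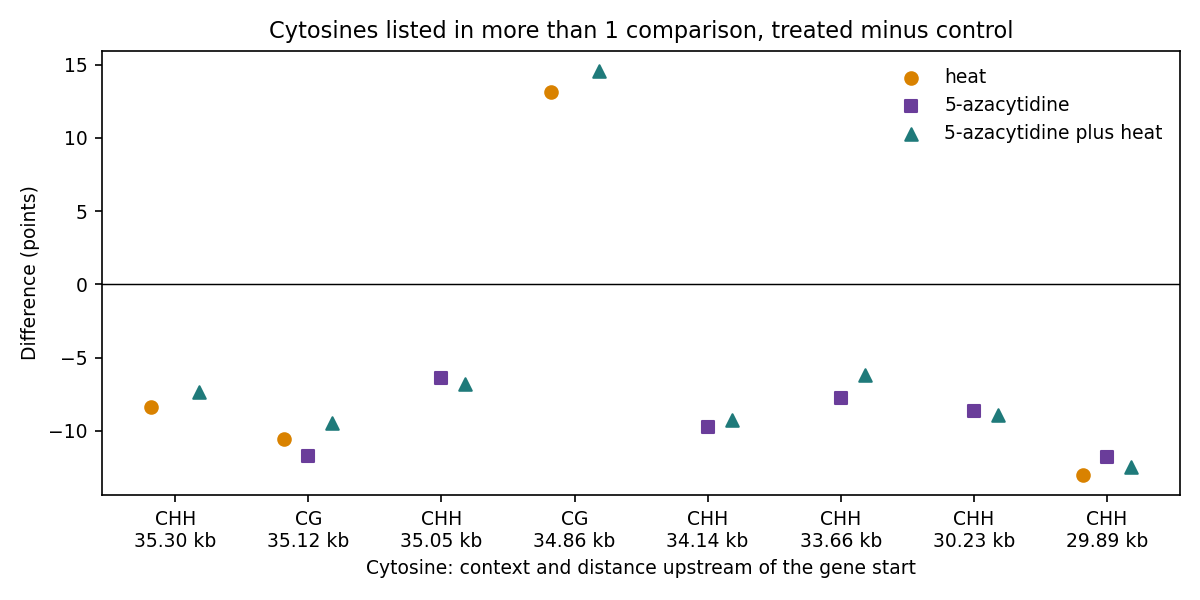
Authors' difference (y axis, percentage points) at the 8 cytosines listed in more than 1 comparison, ordered by distance upstream of the gene start (x axis, with context). Each marker is 1 comparison with the shared control library, and a missing marker means that the cytosine is not in that list; the CG site at 34860 bp is the one above zero, at 13.1 and 14.6 points.

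The members nearest to the limits of the lists were a CHH site at 11392812, with the highest q-value (0.0474), and one at 11393697, with the smallest absolute difference (-6.16 points), both for the combined treatment in the authors' deposited table. The 9 tables as a whole reach up to a q-value of 0.0499 and down to 5.01 points. Sites beyond these limits were not analysed here.

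By number of listings in the 8 tables with usable gene columns, Lus10009768 ranked 5 of 389 genes with its 37, tied with Lus10019378 on Lu3. The median gene had 2. Of the 37, 4 were from heat (10.8%), 8 from 5-azacytidine (21.6%) and 25 from both (67.6%). All 1793 listings of these tables divided as 10.3%, 31.6% and 58.2%, so the combined treatment also leads the lists as a whole. Next to it in rank, Lus10019378 had 4, 11 and 22, Lus10024541 on Lu13, tied at 45 listings with Lus10011702, had 11, 12 and 22, and Lus10002716 on Lu14 had 12, 12 and 12. The share of lower listings was 94.6% for Lus10009768 and 89.2%, 84.4% and 80.6% for these 3 genes in the same order. Over the 9 tables, 92.3% of the 39 listings of the region were lower, as were 92.3% of all 1894. The contexts also differed: CHH made up 32 of 37 listings for Lus10009768, then 36 of 37, 38 of 45 and 17 of 36. The sites of the 3 genes lay at unlike distances: those of Lus10019378 were 23298 to 38838 bp from the gene start, those of Lus10024541 1052 to 32391 bp, and those of Lus10002716 82 to 942 bp. The 4 genes share the libraries, and differences between them were not tested.

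**Figure D4:**
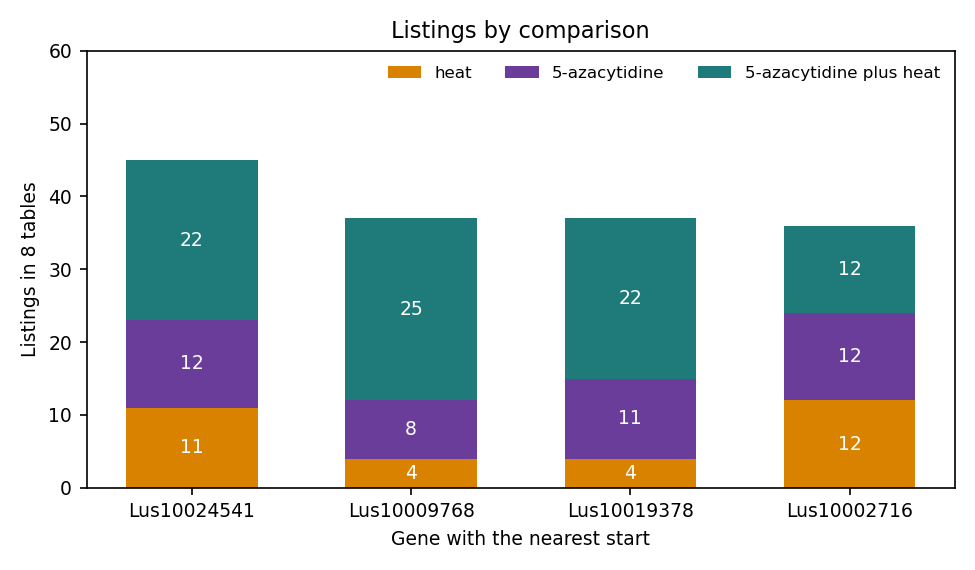
Number of listings in 8 tables (y axis) for Lus10009768 and the 3 genes next to it in rank (x axis), stacked by comparison. The combined treatment gives 25 of the 37 listings of Lus10009768 (67.6%, against 58.2% of all listings in these tables) and 12 of the 36 of Lus10002716.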

How the data were processed

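The files are 9 tables of differential methylation, for 3 treated libraries against 1 control library in 3 contexts. Trimmomatic, FastQC, BWA, MethylDackel and methylKit are named per the submitters' processing notes. Versions and the genome build are not given in the sources used here. Per the file headers, the authors deposited p-values and q-values, a methylation difference (treated here as a score in percentage points), a position and a distance to the nearest gene start. Every listing spans 1 bp. From the range of the deposited values, the authors' limits appear to be a q-value of 0.05 and a difference of 5 points.

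Gene columns of the 5-azacytidine plus heat CG table were not used: 2 of its rows carry the gene identifier or only the PAC code of Lus10009768 beside positions on Lu11. Strand entries were left out: they disagree between tables for 4 of the 8 cytosines listed more than once. Counts, shares with exact Clopper-Pearson 95% intervals, medians and groups of sites joined at 200 bp were computed in Python 3.11.15 with pandas 2.3.3 and scipy 1.17.1. The code was checked on made-up tables. Intervals cover counting error only. Every listed cytosine of the gene could be named. In full were given, per list, the largest rise and fall, the lowest q-value and repeated cytosines. Also fixed were the nearest listed gene on each side and the 3 genes next in rank. The members and lists were chosen with earlier results of these data known. Sequences were not used here.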

Additional observations from a re-analysis of the deposited data

How the results depend on the processing

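Of 69 recomputed values, 30 could not change because the alternative left their sites as they were. Of the other 39, 19 stayed within their limits, 15 moved and 5 changed direction. The limits were 1.5 times for a number and the 95% interval of a share or median. For the heat median, with 4 sites, the whole range of -13.0 to 13.1 points was used, which falls short of 95%. The 5-azacytidine interval also equalled its range, so medians of these comparisons could only stay or change sign. The 5 changes came from a stricter q-value, and fewer sites then remained. Below 0.01, heat kept 1 site, the CG rise, so its share of lower sites was 0% and its median 13.1 points. The values below 0.001 were the same. Below 0.001, 5-azacytidine kept 2 CG sites, 50% of them lower, with a median of 2.88 points. The combined treatment kept 12 sites below 0.01 and 5 below 0.001, 80% of the latter lower. With differences of at least 10 points, 5-azacytidine had 4 sites and the combined treatment 10, whose median was -12.4 points. Without the CG table of the combined treatment, 100% of its 25 sites were lower. Within 2000 bp upstream there were 0 sites in each comparison. Sites joined at 100 bp and 500 bp gave 13 and 3 groups, against 7 at 200 bp. Counting strand pairs once and taking sites of any gene in the span tested nothing, since the region holds 0 such pairs and 0 sites of other genes. Leaving out the lone site, an alternative chosen after seeing the data, took the combined median from -9.19 to -9.17 points, within its limits. No paired analysis was possible because each group is 1 library. Depth is unknown, so its part in which sites were listed was not tested.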

Other observations

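In the CG table of 5-azacytidine plus heat, 2 rows carry an identifier of Lus10009768 beside cytosines on Lu11. The authors' deposited table gives -10.0 points at 19691365 with a distance of -35120 bp, and 44.4 points at 19691643 with a distance of -34860 bp. Those distances are the ones of the Lu13 CG sites at 11392242 and 11392502 in the heat table. The Lu11 cytosines were therefore not counted for this gene.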
